A study of Mus musculus with 7 samples.

Results

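The AP-1 transcription factors and close relatives were described in mouse granulocytes by the 10 genes Fos, Fosb, Fosl2, Jun, Junb, Jund, Jdp2, Atf3, Batf and Maff, out of 51789 genes in the deposited count table. The genes were chosen by a measured value, the level of Jdp2 over the libraries, which an earlier look at the same counts had found to follow the neutrophil transcripts, with the other 9 added as its relatives. How the levels vary over the libraries is therefore a description and carries no test, while the comparison of genotypes was not used to choose the genes. All 10 were among the 12506 genes with enough counts to be tested. The 7 libraries came from granulocytes labelled Alox15 knockout (n = 3) or Alox15 wild type (n = 4), all untreated. Alox15 encodes a lipoxygenase that oxidises polyunsaturated fatty acids, and the title of the series concerns ferroptosis of neutrophils in tumours. The sources used here give no strain, age, sex, tissue, sorting scheme or deleted exon of Alox15. They do not say whether replicates came from separate animals, so every p-value measures the spread among 7 libraries, part of which may be technical.

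AP-1 is a dimer of basic leucine zipper (bZIP) proteins, most often a Fos protein paired with a Jun protein, that binds DNA at TGACTCA or TGACGTCA sites. Many of its genes are immediate early genes, transcribed within minutes of a stimulus without new protein synthesis and driven by MAP kinases. Fos, Fosb and Jun are strong activators, Junb and Jund often temper Jun, and Jdp2, Atf3, Batf and the small Maf protein Maff lack a classical activation domain and can repress or redirect transcription. In neutrophils, AP-1 takes part in the transcription of cytokine genes.

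The libraries set the frame for every result below. Total counts ran from 3228292 to 5348256 in the knockouts and from 3606843 to 5657192 in wild type. Alox15 had 1 count in knockout 1 and 0 counts in the other 6 libraries, so it does not check the genotype labels. The X-linked transcript Xist stood at 382 and 102 CPM (read counts scaled by TMM library size) in knockouts 2 and 3 and at 0.896 to 6.11 CPM in the other libraries. Knockouts 2 and 3 also shared a description stem that the other 5 libraries did not have, so stem and sex-linked transcripts cannot be told apart from part of the genotype contrast. The labelled cell type was checked with 20 mature neutrophil markers, whose summed level was 28809, 19254 and 2709 CPM in knockouts 1 to 3 and 35997, 3395, 14308 and 15028 CPM in wild types 1 to 4. Knockout 3 and wild type 2 thus held the least neutrophil RNA and also the most T and NK cell marker RNA, at 1651 and 1199.7 CPM summed over 14 markers against 565 to 1185 CPM elsewhere. Among 8 markers of eosinophils, basophils and mast cells, Epx, Mcpt8, Fcer1a and Ms4a2 had 0 counts in all 7 libraries. The remaining markers of that list had reads, and 3 had enough counts to be tested. The summed level of the 8 ran from 6.62 CPM in knockout 3 to 27.2 CPM in knockout 1, with every wild type in between. Absence of these cells is thus not shown. Of 14 monocyte and macrophage markers, 14 had fold changes above 0 and 0 passed (median log2 fold change 0.82). The unadjusted edgeR p was under 0.05 for 1 of them. Over all tested genes, 48.6% of fold changes were below 0 and the median was 0.01. Markers of the same cells are not independent of one another. The summed level of the 14 markers was 369 to 1869 CPM in knockout, highest in knockout 1, and 282 to 779 CPM in wild type. Their part in the results was not tested. In bulk RNA, fewer cells of a type and less RNA per cell cannot be told apart.

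Upstream sequence is shown first for Fos, Jun, Junb and Maff, whose 4 windows are those that lie outside annotated exons and hold a match to a site that AP-1 or CREB proteins bind. RefSeq starts (GRCm38.p6) gave 14 windows of 250 bases before a transcript start, with at least 1 for each of the 10 genes. Both strands were searched for TGACTCA, TGACGTCA and its core TGACG (which overlap by construction), for TTACCTCA and TGACATCA, which are the pair of variant AP-1 sites known from the Jun promoter, for TATAAA and for the CArG box of serum response factor. Capitals mark the matches.
Fos, chr12:85473640-85473889, plus strand: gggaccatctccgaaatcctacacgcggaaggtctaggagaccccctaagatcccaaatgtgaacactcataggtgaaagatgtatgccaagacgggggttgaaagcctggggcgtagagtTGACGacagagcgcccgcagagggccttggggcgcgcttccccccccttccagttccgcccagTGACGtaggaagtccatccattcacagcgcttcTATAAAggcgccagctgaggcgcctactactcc
Jun, chr4:95052223-95052472, minus strand: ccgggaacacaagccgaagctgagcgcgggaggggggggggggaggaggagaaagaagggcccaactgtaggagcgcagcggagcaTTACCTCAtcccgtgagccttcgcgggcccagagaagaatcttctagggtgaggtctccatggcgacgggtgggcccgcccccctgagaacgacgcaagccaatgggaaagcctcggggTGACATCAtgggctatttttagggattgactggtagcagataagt
Junb, chr8:84978749-84978998, minus strand: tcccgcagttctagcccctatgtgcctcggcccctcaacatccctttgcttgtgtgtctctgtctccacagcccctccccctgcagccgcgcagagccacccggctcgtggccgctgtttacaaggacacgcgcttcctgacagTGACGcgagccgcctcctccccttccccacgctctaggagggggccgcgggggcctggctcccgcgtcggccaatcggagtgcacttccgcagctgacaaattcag
Maff, chr15:79347270-79347519, plus strand: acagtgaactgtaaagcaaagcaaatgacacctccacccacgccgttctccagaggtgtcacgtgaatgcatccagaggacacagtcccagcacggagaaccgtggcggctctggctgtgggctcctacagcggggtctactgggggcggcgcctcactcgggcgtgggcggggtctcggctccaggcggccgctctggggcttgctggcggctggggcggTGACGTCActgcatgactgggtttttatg
The Fos window held TGACG from base -129 and from base -66 before the start, and TATAAA from base -33. The Junb window held TGACG from base -106. The Jun window held TTACCTCA from base -164 and TGACATCA from base -45, and this Maff window, the second of 3 for the gene, held the palindrome TGACGTCA from base -29. The third Maff window, which overlaps a Maff exon and is not shown, held TGACATCA from base -45. Of all 32851 windows in the RefSeq table, TTACCTCA occurred in 0.728%, TGACATCA in 2.93%, TGACGTCA in 1.55%, TGACG in 17.8% and TATAAA in 12.4%. TGACG occurred in at least 1 window of 7 of the 10 genes. That counts genes, and Jdp2 and Maff have 3 windows each, so it is not on a common footing with the 17.8% of single windows. TGACTCA, found in 4.46% of all windows, and the CArG box, found in 1.47%, had no match in a window of any member, which says only that these letters were not in these 250 bases. A match is a description of letters, not of binding.

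None of these transcripts was called different between genotypes: 0 of the 10 genes passed the edgeR quasi-likelihood test of knockout against wild type after Benjamini-Hochberg adjustment over all genes (adjusted p = 0.99995 for each), as did 0.0% of the 12506 genes tested. At an unadjusted p under 0.05 there were 0 of 10, against 1.23% of all tested genes. In 0 of the 10 genes did the ranges of the groups separate, against 3.13% of all tested genes (1.57% with the knockouts higher and 1.57% with them lower). Over all genes, edgeR called 0, DESeq2 1 and limma-voom 0, with 154 genes at an unadjusted p under 0.05 in edgeR. The median log2 fold change over the 10 genes was -0.33, and 8 of 10 fold changes were below 0, against a median of 0.01 and 48.6% over all tested genes. That count rested on single libraries: without wild type 1, 8 of 10 fold changes were above 0 with a median of 0.17, without knockout 3 it was 5 of 10 with a median of -0.0968, and without knockout 1 it was 0 of 10 with a median of -0.54. With limma-voom 7 of 10 were above 0, and with the description stem as a covariate 5 of 10. Since knockouts 2 and 3 have a stem that no wild type has, the stem fit compares knockout 1 alone with the wild types. The fold changes of the members are not independent of one another, since most shared their high and low libraries.

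**Figure D1:**
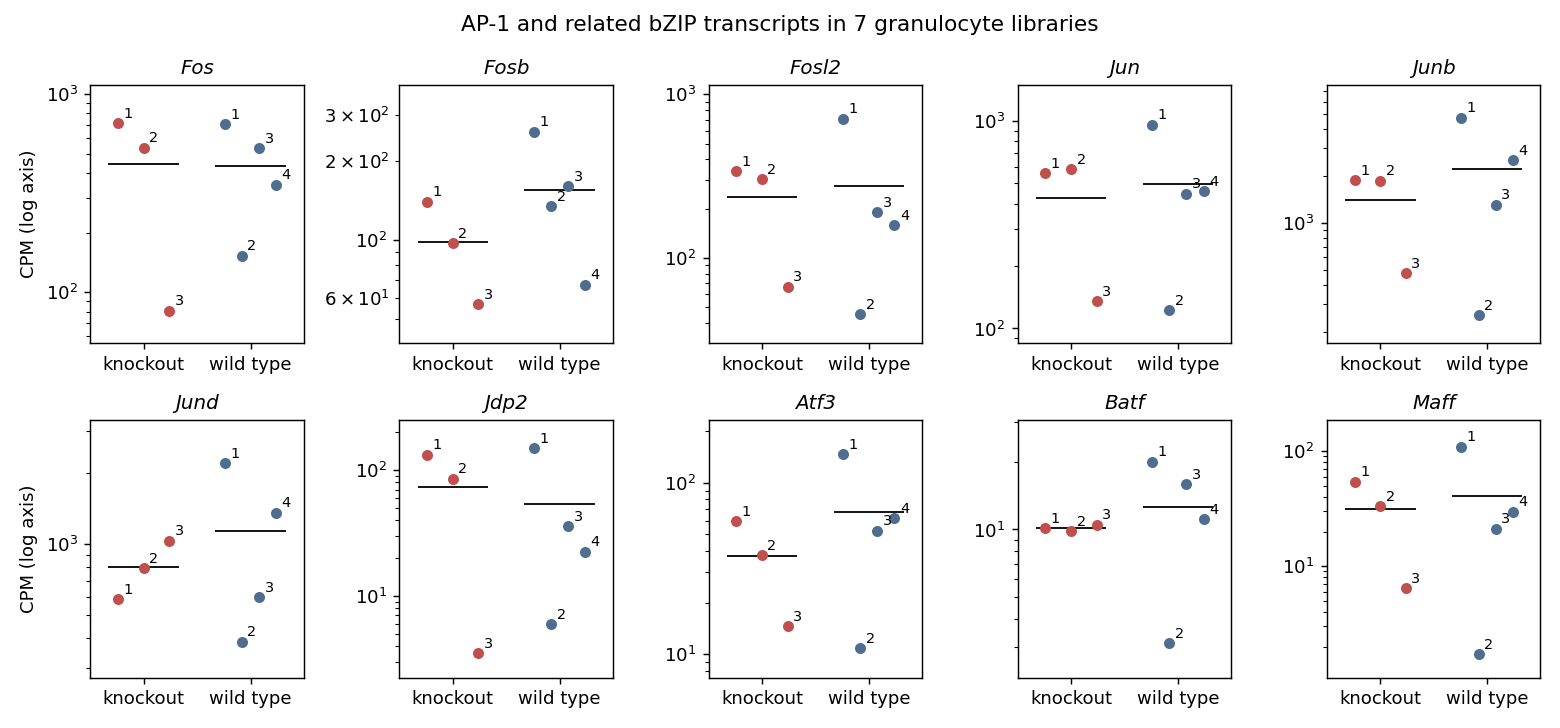
Level of each of the 10 transcripts in CPM (log axis) in the 3 knockout and 4 wild-type libraries; points are libraries, numbered by replicate, and lines are group means. The groups overlap for every gene, and knockout 3 and wild type 2 lie lowest in 7 of 10 panels.

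Among the Fos genes, Fos itself is the prototype immediate early gene. Fos stood at 709.6, 536 and 80.6 CPM in knockouts 1 to 3, against 700.1, 153, 534 and 348 CPM in wild types 1 to 4. Its highest library was a knockout and its lowest was another, and the groups overlapped over nearly their whole range. Mean levels were 442 ± 325 CPM in the 3 knockouts and 434 ± 236 CPM in the 4 wild types (SD), with a log2 fold change of 0.03 ± 0.71 (SE) that was -0.01 with RLE and -0.00399 with upper-quartile factors in place of TMM. Fosb, a close relative that also yields a truncated form, stood at 140.2, 97.4 and 56.7 CPM in knockouts, against 259, 135, 161 and 67.5 CPM in wild types. Its low libraries were knockout 3 and wild type 4, and wild type 2, low for most of the other members, was not among them. Knockout minus wild type was -0.66 ± 0.46 on the log2 scale (SE). It ranged from -1.01 without knockout 1 to -0.33 without wild type 1. With the description stem as a covariate, which leaves knockout 1 alone against the wild types, it was -0.15. The unadjusted edgeR p was 0.0449 without wild type 4 and 0.0335 with the replicate block, and the adjusted p passed in 0 of 17 alternatives. Wild type 4 has no same-numbered knockout, so the replicate block also takes it out of the genotype contrast.

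Fosl2, which encodes FRA-2, stood at 338, 302 and 66.4 CPM in knockouts, against 710.3, 44.9, 191 and 158 CPM in wild types. Wild type 1 was more than any knockout and wild type 2 less than all of them, so the knockout range lay inside the wild-type range. Fosl2 had a log2 fold change of -0.23 ± 0.86 (SE). It was 0.81 without wild type 1 and 0.17 without knockout 3. Fosl1, the remaining Fos gene and not a member of the list, was near the floor, at 3.89, 2.45 and 0 CPM in knockouts and 14.0, 0, 3.97 and 0 CPM in wild types.

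The Jun genes were the most abundant. Libraries of this kind count tags near the 3′ end, so the levels were not divided by transcript length, and the order below is one of counts. Junb stood at 1871, 1859 and 476 CPM in knockouts, against 4734, 255, 1305 and 2518 CPM in wild types. The highest and the lowest values were both wild type, and the 3 knockouts fell between them. Mean Junb was 1402 ± 802 CPM in the 3 knockouts and 2203 ± 1924 CPM in the 4 wild types (SD), with a log2 fold change of -0.65 ± 0.86 (SE), or 0.00789 without wild type 1. Jun, the partner that gives AP-1 its strongest dimers with Fos, stood at 559, 584 and 135 CPM in knockouts, against 962, 123, 446 and 459 CPM in wild types. Knockouts 1 and 2 exceeded 3 of the 4 wild types, and knockout 3 was near wild type 2. Its log2 fold change was -0.22 ± 0.69 (SE), or 0.28 without wild type 1 and 0.15 without knockout 3.

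Jund, the Jun gene usually transcribed without a stimulus, stood at 585, 791 and 1031 CPM in knockouts, against 2193, 387, 597 and 1353 CPM in wild types. Knockout 3 held the highest knockout level of Jund and the lowest knockout level of 8 other members, Jun and Junb among them. Its log2 fold change was -0.50 ± 0.57 (SE), or 0.0537 without wild type 1. Reads of 3 Jun genes can be shared with an overlapping gene if counting ignored strand, which the sources used here do not give. How far shared reads enter the counts was not tested. The overlaps were also not placed against the 3′ ends of these genes, where tags lie. Junb overlaps Prdx2, on the opposite strand, by 351 bases (chromosome 8, Junb at 84974484 to 84978718), and Prdx2 stood at 60.3 to 81.4 CPM in knockout and 38.2 to 80.8 CPM in wild type, with its lowest level in wild type 1, where Junb was highest. The antisense gene of Jun, Junos, stood at 1.95 to 3.98 CPM in knockout and 0.470 to 6.35 CPM in wild type, and the antisense gene of Jund, Gm11175, at 0 CPM in every library but wild type 3, which had 0.397 CPM.

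**Figure D2:**
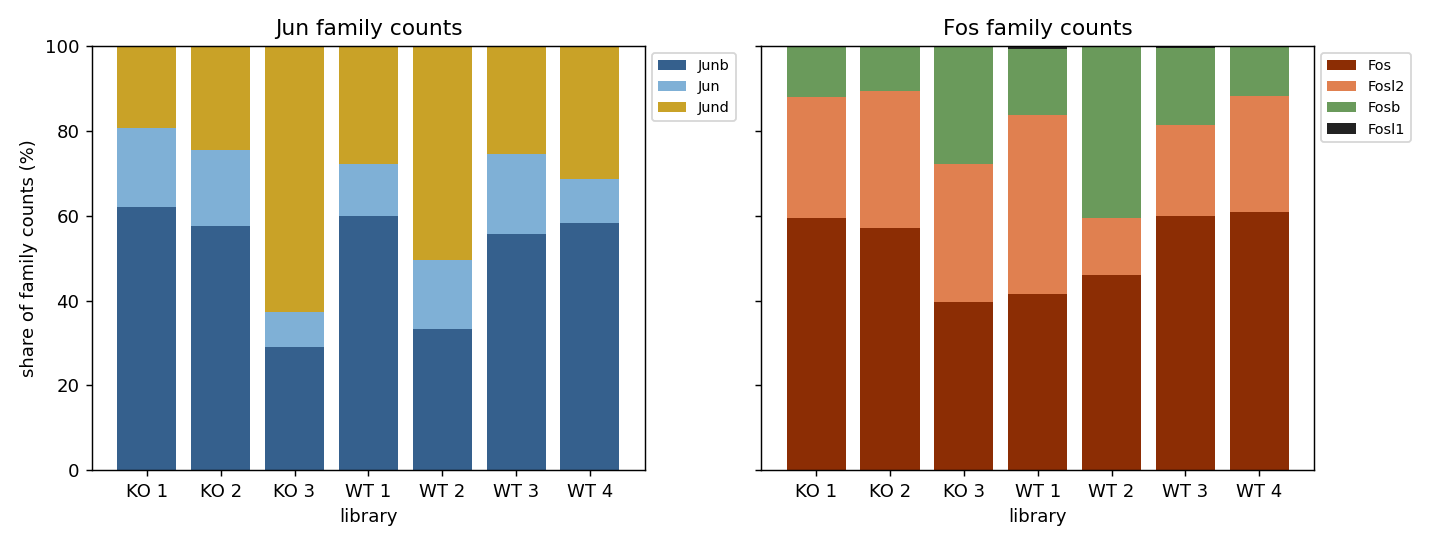
Share of the summed counts of the Jun genes (left) and of the Fos genes (right) taken by each gene in each library, in percent, with knockouts (KO) left of wild types (WT). Jund takes 62.8% of Jun family counts in knockout 3 and 50.6% in wild type 2, and 19.4 to 31.3% in the other 5 libraries.

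The makeup of the Jun counts differed between libraries more than between genotypes. Jund took 19.4, 24.5 and 62.8% of Jun family counts in knockouts 1 to 3, against 27.8, 50.6, 25.4 and 31.3% in wild types 1 to 4. The Wilson 95% interval was 61.8 to 63.8% for knockout 3 and 49.2 to 52.0% for wild type 2. Such intervals cover no more than counting error. Junb took 62.04, 57.5 and 29.0% in knockouts and 60.0, 33.4, 55.6 and 58.2% in wild types. In knockout 3 and wild type 2 the leading Jun transcript was thus Jund, and in the other 5 libraries it was Junb. Averaged over libraries, Junb took 49.5 ± 17.9% (SD, n = 3) in knockout and 51.8 ± 12.4% (SD, n = 4) in wild type. Among the Fos genes, Fosb took 27.8% in knockout 3 and 40.4% in wild type 2 and 10.4 to 18.1% in the other 5 libraries. The same 2 libraries had the least neutrophil RNA and the most T and NK cell RNA, as given above. Wild type 4 was close to wild type 2 in T and NK cell RNA, at 1185 against 1199.7 CPM. The sum of 7 stroma and endothelium markers was also highest in these 2 libraries. It was 247 CPM in knockout 3 and 282 CPM in wild type 2, against 93.2 to 208 CPM elsewhere. The part of any of these cells in the shares was not tested.

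A ratio within a library does not depend on how libraries are scaled. The log2 ratio of Jun to Junb was -1.74, -1.67 and -1.81 in knockouts 1 to 3, against -2.30, -1.05, -1.55 and -2.46 in wild types 1 to 4. The knockouts lay close together and inside the wild-type range. The means were -1.74 ± 0.07 (SD, n = 3) in knockout and -1.84 ± 0.66 (SD, n = 4) in wild type, and an exact two-sided permutation test of the difference of 0.10 gave p = 0.914. The log2 ratio of Fos to Jdp2 was 2.42, 2.64 and 4.36 in knockouts, against 2.23, 4.59, 3.88 and 3.93 in wild types. It was high in knockout 3 and in 3 of 4 wild types, with wild type 1 among the low values. The difference was -0.51 and the exact two-sided permutation p was 0.486. Both had an adjusted p of 0.914 in this family of 2 exact tests, whose 35 arrangements cannot give a p below 0.0286.

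Jdp2 encodes the Jun dimerization protein 2, which pairs with Jun and represses AP-1 sites. It stood at 132, 85.5 and 3.51 CPM in knockouts 1 to 3, against 149, 5.95, 36.0 and 22.5 CPM in wild types 1 to 4. Knockouts 1 and 2 and wild type 1 were high, knockout 3 and wild type 2 were low, and the highest library held 42.6 times the lowest. The low levels rested on 18 counts in knockout 3 and 38 in wild type 2. Mean Jdp2 was 73.8 ± 65.2 CPM in the 3 knockouts and 53.5 ± 65.1 CPM in the 4 wild types (SD). The log2 fold change of 0.47 ± 1.15 (SE) was -0.27 without knockout 1 and 1.74 without wild type 1. In log2 CPM the range of Jdp2 was 5.25, wider than that of 99.4% of the 2228 tested genes within 0.5 log2 units of its mean level, for which the median range was 1.35. The range is given as a description, since it comes from the levels that chose the gene.

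The level of Jdp2 was set beside that of all other genes by the root mean square (RMS) difference between log2 CPM profiles centred on their mean over the 7 libraries. Ranking covered 4803 genes with mean log2 CPM from 5 upward, without pseudogenes and unnamed gene models. The closest were Arg2 (mitochondrial arginase, 0.37), Fcgr4 (an activating Fc receptor, 0.43), Ngp (a neutrophil granule protein, 0.45), Il1r2 (the decoy receptor for interleukin 1, 0.45) and Tm6sf1 (0.48), against a median of 1.95 over the genes ranked. Arg2 stood at 116, 86.1 and 4.87 CPM in knockouts and at 141, 11.3, 54.6 and 32.8 CPM in wild types. For Fos the closest genes were Trim30a (0.15), Atg7, an autophagy enzyme (0.16), Ing3 (0.18), Sirpa, the inhibitory receptor for CD47 (0.19) and Tnfaip3, the NF-kB inhibitor A20 (0.19), against a median of 1.15. A gene with a narrower range lies closer to the middle of all profiles by this measure, so the values of Fos and Jdp2 are not on a common footing.

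**Figure D3:**
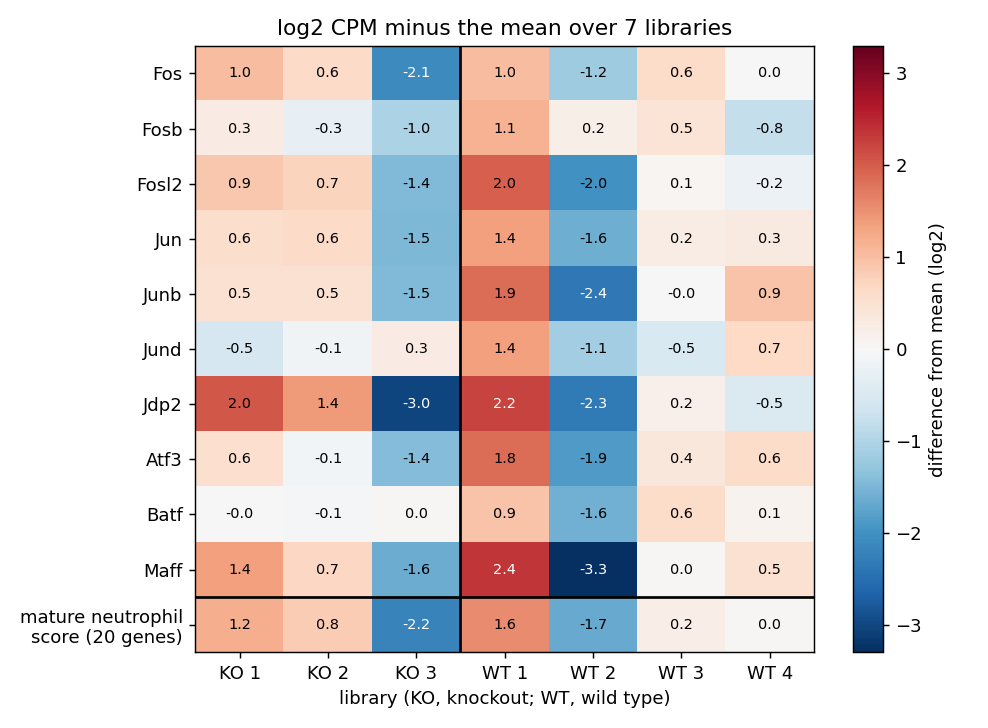
Log2 CPM of each transcript in each library minus its mean over the 7 libraries (colour and printed value), with the mean of 20 mature neutrophil genes in the bottom row. Knockout 3 and wild type 2 are low and wild type 1 is high in most rows, while Jund and Batf stand at or above their mean in knockout 3.

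The same measure against the mature neutrophil score, the mean log2 CPM of the 20 neutrophil markers, placed Fos (0.33), Fosl2 (0.38) and Jun (0.39) closest, followed by Atf3 (0.57), Junb (0.60), Jdp2 (0.64) and Maff (0.75). Jdp2 and Maff, whose log2 ranges were 5.25 and 5.66, lay farther off than Fos, with a range of 3.13. The score itself was 8.73, 8.38 and 5.34 in knockouts 1 to 3 and 9.10, 5.87, 7.77 and 7.59 in wild types 1 to 4. Batf (1.06), Fosb (1.06) and Jund (1.27) were the farthest, against a median of 1.36 over 5027 tested genes. Knockout 3 and wild type 2 were the lowest libraries for 7 of the 10 members, as for 16.2% of all tested genes. Wild type 1 was the highest library for 9 of the 10, as for 20.1% of all tested genes, and the exception was Fos. Since the list was chosen around this pattern, these counts support nothing beyond it. Between members, the nearest profile to Fos was that of Jun (0.40), to Jun and Fosl2 each other's (0.36), to Junb and Atf3 each other's (0.35), and to Jund and Batf each other's (0.57). Fosb lay nearest to Fos (0.85), Maff to Junb (0.55) and Jdp2 to Fosl2 (0.81). With libraries standing apart in this way, no correlation over the 7 libraries is given.

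The other inhibitory or redirecting members were less abundant. Atf3, a stress-induced repressor, stood at 59.9, 37.7 and 14.6 CPM in knockouts, against 146, 10.8, 52.4 and 61.95 CPM in wild types. Wild type 1 held more than any other library by a wide margin, and the knockouts lay between the wild-type extremes. At -0.86 ± 0.77 (SE), its log2 fold change was the largest in size among the 10, and ranged from -1.38 without knockout 1 to -0.18 without wild type 1. Maff, a small Maf protein that pairs with CNC factors such as NRF2, stood at 54.2, 33.4 and 6.43 CPM in knockouts, against 109, 1.72, 21.3 and 29.7 CPM in wild types. Its range of 63.1 times from lowest to highest library was the widest of the list, and the lowest level rested on 11 counts. Its log2 fold change was -0.36 ± 1.08 (SE), or 0.81 without wild type 1 and 0.0925 without knockout 3.

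Batf, which pairs with Jun proteins and IRF factors in lymphocytes and dendritic cells, was the least abundant member. It stood at 10.1, 9.80 and 10.5 CPM in knockouts, against 20.02, 3.13, 15.9 and 11.1 CPM in wild types. The knockouts were nearly level, knockout 3 included, and all lay inside the wild-type range. Counts were 32 to 54 in knockout and 20 to 80 in wild type, so counting error is large beside that of the abundant members. The log2 fold change was -0.30 ± 0.60 (SE), or 0.0259 without wild type 1. Its IRF partners stood at 3.50, 15.6 and 7.98 CPM for Irf4 in knockouts and 5.17 to 6.16 CPM in wild types, and at 58.8 to 84.6 CPM for Irf8 in knockouts and 35.5 to 68.5 CPM in wild types, with 0 of 2 past the threshold.

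**Figure D4:**
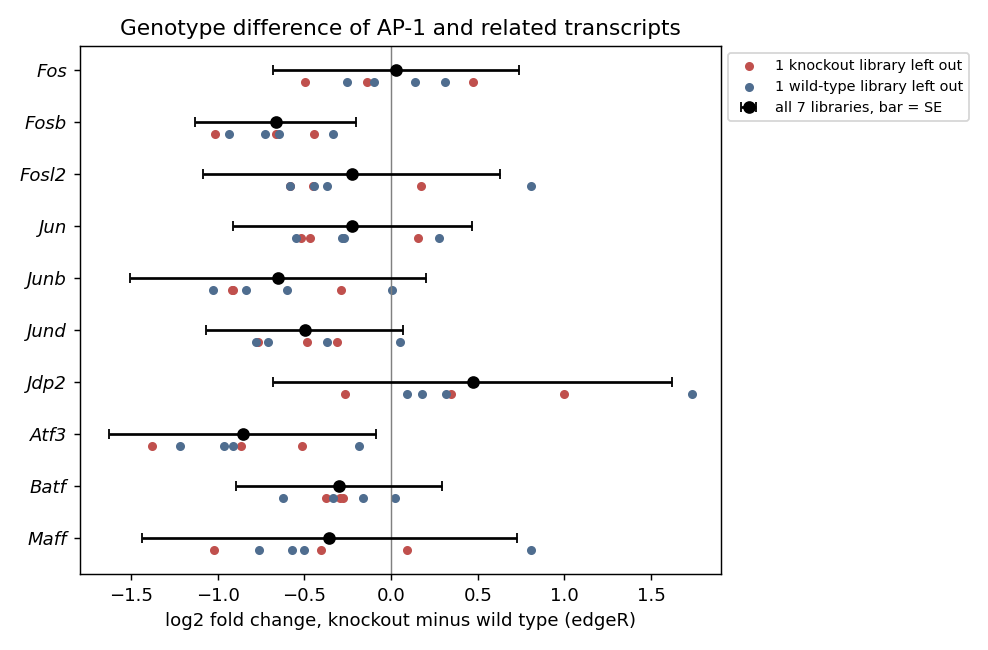
Log2 fold change of knockout minus wild type for each transcript from edgeR with all 7 libraries (black, bar = SE) and with 1 library left out (red, a knockout; blue, a wild type). Values with 1 library left out fall on both sides of 0 for Fos, Fosl2, Jun, Junb, Jund, Jdp2, Batf and Maff, and below 0 for Fosb and Atf3.

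The order of the levels was Junb, Jund, Jun, Fos, Fosl2, Fosb, Atf3, Jdp2, Maff and Batf by mean log2 CPM, from 10.35 down to 3.42. Jund exceeded Jun and Fosb exceeded Atf3 in 7 of 7 libraries, by 1.18 ± 0.98 and 1.52 ± 1.08 log2 units (SD, n = 7). Fos exceeded Fosl2 in 6 of 7 libraries, by 0.93 ± 0.63. The other neighbours did not differ beyond their spread over libraries: Jun and Fos, for example, were 0.11 ± 0.43 apart. Summed over the 10 genes, the level was 4459.8, 4336 and 1881 CPM in knockouts, against 9983, 1119, 3359 and 5029 CPM in wild types. As a share of all counts it was 0.437, 0.438 and 0.181% in knockouts and 0.926, 0.126, 0.340 and 0.486% in wild types, so both extremes were wild type.

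Fos, Jdp2 and Batf are neighbours on chromosome 12, all on the plus strand, with 121.753 kb between Fos (85473890 to 85477273, GRCm38) and Jdp2 (85599027 to 85639878) and 46.79 kb between Jdp2 and Batf (85686669 to 85709087). No other protein-coding gene lies between them. The RMS difference between profiles was 0.91 for Fos and Jdp2, 1.63 for Jdp2 and Batf and 0.95 for Fos and Batf. The largest of any pair was 1.85, for Jdp2 and Jund. Fos and Jdp2 were both lowest in knockout 3, while Batf was nearly level over the knockouts, at 9.80 to 10.5 CPM. Gm47863, a noncoding gene on the opposite strand that overlaps Jdp2 by 165 bases, stood at 19.6, 16.8 and 0 CPM in knockouts and 22.7, 1.72, 6.56 and 13.8 CPM in wild types. It was highest in wild type 1 and lowest in knockout 3, as was Jdp2. Without strand its reads cannot be told apart from those of Jdp2 in the overlap. That overlap lies at the start of Jdp2, while tags of these libraries lie near the 3′ end.

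**Figure D5:**
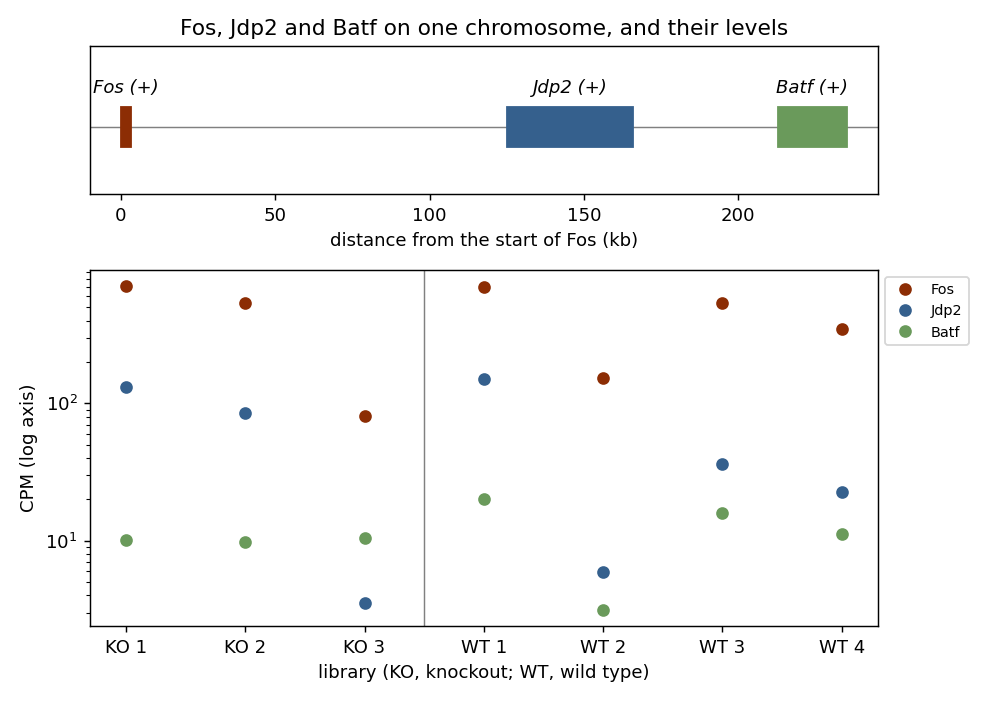
Top, the genes Fos, Jdp2 and Batf drawn to scale by distance from the start of Fos in kb, with (+) marking the plus strand; bottom, their CPM (log axis) in each library. In knockout 3, Fos (80.6 CPM) and Jdp2 (3.51 CPM) are at their lowest and Batf (10.5 CPM) is not.

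The rest of the pathway gave no call either. Of 18 MAP kinases, MAP kinase kinases and ternary complex factors, which carry signals to the AP-1 genes, 0 passed in either direction (11 fold changes above 0 and 7 below, median 0.12). Map2k7, the kinase that activates JNK, stood at 39.7, 31.5 and 38.2 CPM in knockouts, against 53.2, 57.5, 54.2 and 54.0 CPM in wild types. The groups did not overlap, as was so for 3.13% of all tested genes. The level hardly followed that of the members, with wild type 2 at the top. The log2 fold change was -0.58 ± 0.25 (SE), with an unadjusted edgeR p of 0.0458 and an adjusted p of 0.99995, so it did not pass. Map2k7 was named for the smallest p of the list. It was the only 1 of the 18 with an unadjusted edgeR p under 0.05, against 1.23% of all tested genes. With 1 library left out, the unadjusted p ran from 0.0550 to 0.137. Map2k1, a kinase upstream of ERK, had -0.54 ± 0.36, and Map3k5, the stress kinase ASK1, had 0.59 ± 0.52 (SE), or 0.20 without knockout 2 and 1.04 without wild type 1.

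Of 20 other immediate early genes, 0 passed, with 3 fold changes above 0 and 17 below and a median of -0.43. Over all tested genes, 48.6% of fold changes were below 0. The summed level of the 20 was highest in wild type 1, at 14474 CPM, against 1490 to 9198 CPM in the other libraries. Among the 20, the lowest p values belonged to Myc (-1.07 ± 0.60), Nr4a3 (-1.44 ± 1.0996), Nr4a1 (-0.87 ± 0.76) and Rhob (-0.63 ± 0.63, SE). Nr4a3, a nuclear receptor, stood at 23.1, 21.4 and 5.06 CPM in knockouts, against 144, 6.89, 20.9 and 7.94 CPM in wild types, and its fold change was 0.44 without wild type 1. Of 6 tested MAP kinase phosphatases, which switch the kinases off, 0 passed. Dusp1 stood at 7543, 2948 and 177 CPM in knockouts, against 4278, 609.7, 2188 and 1036 CPM in wild types, with a log2 fold change of 0.81 ± 1.02 (SE) that was -0.38 without knockout 1. Dusp2, Dusp10 and Dusp16 had -0.44 ± 0.45, -0.62 ± 0.64 and 0.32 ± 0.88 (SE).

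Of 22 other bZIP genes 0 passed, with 13 fold changes above 0 and 9 below and a median of 0.04. Creb3 had 0.66 ± 0.46, Atf6, a sensor of endoplasmic reticulum stress, -0.36 ± 0.25, and Mafk, a small Maf relative of Maff, -0.64 ± 0.45 (SE).

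Of 16 tested genes reported as AP-1 targets 0 passed, with 6 fold changes above 0 and 10 below and a median of -0.05. Spp1, or osteopontin, had 1.11 ± 0.62, Vegfa -0.43 ± 0.40, Plau, the urokinase, 0.67 ± 1.28, and Mmp9, gelatinase B, 0.38 ± 0.85 (SE). Mmp9 is also 1 of the 20 neutrophil markers. Heat shock chaperones, which help proteins fold under stress, had a summed level of 6715, 8333 and 10525 CPM in knockouts and 5446, 9488, 8569 and 6297 CPM in wild types. Their sum was highest in knockout 3 and lowest in wild type 1. Of 10 chaperone genes 0 passed (7 fold changes above 0, 3 below, median 0.19), among them Dnajb1 with -0.66 ± 0.35, Hspb1 with 1.61 ± 1.05, Hsp90ab1 with 0.28 ± 0.35 and Hspa8 with -0.28 ± 0.36 (SE).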

How the data were processed

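RNA was measured in 3 Alox15 knockout and 4 wild-type libraries of mouse granulocytes. Per the labels' protocols, RNA was column-purified and DNase-treated, and libraries were made with a Lexogen QuantSeq kit, a 3′ tag method. The authors deposited 1 table of whole-number counts per Ensembl gene. The submitters' processing notes name mm10, RSEM 1.2.3 and DESeq2 without a role for any, so the counts may be rounded estimates. The sources used here give neither the annotation release nor the strand setting. No molecular identifiers were named, so copies of the same molecule may be counted more than once. Intervals treat each read as independent, cover no more than counting error and may be too narrow for it.

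Of 51789 genes, 51596 matched a symbol. Coordinates are from GENCODE M21 (GRCm38, the build of mm10), 1-based. The genotype test was edgeR 4.0.16 in R 4.3.3 (filterByExpr, TMM, robust quasi-likelihood F test, Benjamini-Hochberg over 12506 genes, threshold 0.05). The tested genes held 99.6% of counts. Log2 CPM carried a prior count of 2. Ratios were tested by exact permutation. Alternatives were DESeq2 1.42.0, limma-voom 3.58.1, other factors and filters, leaving out libraries, a replicate block, and the description stem or neutrophil score as a covariate. Counts were simulated for 12506 genes of this comparison in 3 runs, each gene independently, with changed genes drawn from those averaging above 8 CPM. On them the test recovered 2.67% of 2-fold, 38% of 4-fold, 79.3% of 8-fold and 91.3% of 16-fold changes. Jdp2 and Maff had wider ranges than 99.4% and 99.0% of tested genes of like level. The rates may thus be too high for such members.

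The members and lists were chosen with earlier results of these data known. Named genes of the other lists were up to 4 per list with the smallest unadjusted p, with the 5 genes closest in profile to Jdp2 and to Fos, and others named for background (Fosl1, Prdx2, Junos, Gm11175, Gm47863, Xist) were chosen after their values were seen. Some genes that the rule names are not reported here.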

Additional observations from a re-analysis of the deposited data

Results flagged for a closer look

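In 36 genes screened (the 10 members and 26 named genes of other lists), 3 had a wild-type library far from the other 3. The screen tests groups of 4 libraries, and chance flags about 1 in 20 groups of independent, normally distributed values. CPM values of genes that share libraries need not be such values, so that rate is no yardstick for the 3 flags. In each of the 3 genes the library was wild type 1, the highest library for 20.1% of all tested genes. Dusp16, a phosphatase of JNK, stood at 169 CPM there and at no more than 42.9 CPM in the other wild types. Map2k1 stood at 49.6 CPM there and at no more than 36.3 CPM in the others. Nr4a3 stood at 144 CPM there and at no more than 20.9 CPM in the others. None of the 10 members was flagged, and the knockouts, with 3 libraries, were not screened.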

How the results depend on the processing

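No gene was called in 16 of 17 alternatives, and leaving out single libraries gave 0 to 0 calls. DESeq2 called 1 gene, which is no member. Genes at an unadjusted p under 0.05 numbered 213 in DESeq2, 524 in limma-voom and 154 in edgeR. Members never passed. Fosb and Atf3 kept their direction in all 17 alternatives. Fos turned to -0.0112 with DESeq2, -0.0111 with RLE factors, -0.00399 with upper-quartile factors, -0.00750 without a filter and -0.20 with the neutrophil score as a covariate. With limma-voom, Fosl2 turned to 0.72, Jun to 0.35, Junb to 0.28, Batf to 0.0490, Maff to 1.15 and Nr4a3 to 0.21. With the description stem as a covariate, Fosl2 turned to 0.30, Jun to 0.17, Maff to 0.43, Irf4 to -0.70, Map2k1 to 0.0781, Hsp90ab1 to -0.10 and Rhob to 0.0916. The stem fit compares knockout 1 alone with the wild types, so these values rest on a single knockout library. With the neutrophil score, Fosl2 turned to 0.18, Maff to 0.18 and Plau to -0.48.

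The replicate block turned Fos to -0.23, Jund to 0.0359, Maff to 0.0482, Dusp16 to -0.00146 and Mmp9 to -0.23 and called 0 genes. Wild type 4, with no same-numbered knockout, adds nothing to the genotype contrast of that fit. Deviations of same-numbered libraries from their group means correlated at 0.35, -0.22 and -0.18 across genes. The closest wild type was number 1 for knockouts 1 and 2 and number 2 for knockout 3. Libraries also differed in neutrophil RNA, so these values cannot decide whether same-numbered libraries were paired.

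Leaving out single libraries gave ranges of -0.49 to 0.47 for Fos, -0.58 to 0.81 for Fosl2, -0.55 to 0.28 for Jun, -1.02 to 0.00789 for Junb, -0.78 to 0.0537 for Jund, -0.27 to 1.74 for Jdp2, -0.62 to 0.0259 for Batf and -1.02 to 0.81 for Maff. They were -0.68 to 0.0948 for Dusp2, -0.38 to 1.43 for Dusp1, -0.51 to 1.39 for Dusp16, -1.81 to 0.44 for Nr4a3, -0.0483 to 1.54 for Spp1, -0.996 to 1.28 for Plau, -0.28 to 0.87 for Mmp9 and -0.11 to 0.36 for the ratio of Jun to Junb. Without a change of sign, the range reached over 1.5 times from the main value for Fosb (-1.01 to -0.33), Atf3 (-1.38 to -0.18), Map3k5 (0.20 to 1.04), Map2k1 (-0.99 to -0.34), Dnajb1 (-1.03 to -0.38), Hspa8 (-0.61 to -0.0232), Hsp90ab1 (0.0908 to 0.44), Irf4 (0.00833 to 1.04), Irf8 (0.15 to 0.48), Dusp10 (-1.11 to -0.31), Creb3 (0.37 to 0.94), Mafk (-0.85 to -0.26), Nr4a1 (-1.30 to -0.25), Rhob (-1.19 to -0.28) and Vegfa (-0.66 to -0.14). The cause of these changes was not tested. The spread between libraries (biological coefficient of variation 0.563) and 3 against 4 libraries limit the test to large differences.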
